A study of Mus musculus with 8 samples.

Results

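The 10 genes described here are placental members of the mouse prolactin family: *Prl2a1*, *Prl2b1*, *Prl2c5*, *Prl3b1*, *Prl3d1*, *Prl4a1*, *Prl5a1*, *Prl7a2*, *Prl7b1* and *Prl7d1*. They were picked from the 26263 genes of the count tables by symbol, for a rise from near 0 counts in embryonic stem cells (ESCs) to high levels at day 12 of *in vitro* corticogenesis. Their levels in those 2 stages are therefore the values that chose them and are given without a test. The tables held 27 genes of the prolactin family in all, of which the other 17 serve here as the comparison.

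The study compared ESCs with the day 12 cells derived from them, labelled ES-derived neural precursor cells (NPCs), in hybrids of the C57BL/6 and JF1 mouse strains. B/J cells came from the line ES_BJE2 (C57BL/6 mother, JF1 father) and J/B cells from the line ES_JBE6 (the reverse cross), both male. Each of the 4 groups (ESC B/J, ESC J/B, NPC B/J and NPC J/B) held 2 libraries of polyA RNA. ESCs were kept in medium with LIF, BMP4 and a GSK3-β inhibitor, and NPCs were made from the same lines on Matrigel in medium with B27 and a dorsomorphin homolog. Each cross was represented by 1 line, so that cross and line cannot be told apart. The labels do not say whether the 2 libraries of a group came from separate cultures, and p-values then measure only the spread between these libraries, which may be technical. Between 22537138 and 32706015 reads per library were assigned to genes.

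Prolactin is a pituitary hormone that signals through the prolactin receptor and the kinase JAK2 to the transcription factor STAT5. In rodents the prolactin gene has been copied many times, and most of the copies are used by the trophoblast, the outer lineage of the embryo that builds the placenta, rather than by the pituitary. Trophoblast giant cells and spongiotrophoblast are their main known sources. Some of the products, the placental lactogens, act on the prolactin receptor, whereas others have lost that activity and act elsewhere, for example on blood vessels.

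All 26 family genes with a single position in the GENCODE vM39 annotation of GRCm39 (the assembly also called mm39) lay on chromosome 13, and *Prl2c4* was not matched to one. *Prl2c5* (chr13:13357298-13366508, plus strand) lay in a block of 3 family genes spanning 560.8 kb. The other 9 genes lay in a block of 23 family genes spanning 1094 kb, between *Prl* itself and *Prl5a1*. In order they were *Prl3d1* (chr13:27278173-27284241, plus strand), *Prl3b1* (chr13:27425830-27433666, plus strand), *Prl2b1* (chr13:27567322-27574829, minus strand), *Prl7b1* (chr13:27785802-27794565, minus strand) and *Prl7a2* (chr13:27842567-27852019, minus strand), followed by *Prl7d1* (chr13:27890320-27900719, minus strand), *Prl2a1* (chr13:27985637-27992712, plus strand), *Prl4a1* (chr13:28200195-28207542, plus strand) and *Prl5a1* (chr13:28326467-28335594, plus strand). All 10 are annotated as protein-coding, with 5 exons or, in subfamily 7, 6 exons in the main transcript. No measured gene from outside the family lay inside either block. Neighbours were the nearest genes with a mean of at least 1 CPM (counts per 1000000 counts on genes in the library) over all 8 libraries. They were *Gpr137b-ps*, 121.1 kb from the small block, *Gpr137b*, 164.7 kb from its other end, *2610307P16Rik*, 279.0 kb from the large block, and *Nrsn1*, 1787 kb from its other end. *Gpr137b* ran from 9.86 to 15.8 CPM over the ESC libraries and from 36.5 to 49.6 CPM over the NPC libraries. *Nrsn1* ran from 0.0444 CPM (1 count) to 1.47 CPM over the former and from 0.974 to 2.38 CPM over the latter. Since the mean was taken over both stages, counts in both are partly built in.

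The sequence just before the start of transcription is shown for 5 of the genes, because the pair *Prl2c5* and *Prl7d1* shared it and because *Prl2a1*, *Prl2b1* and *Prl3d1* carry the results on levels and on the cross. Each run is the 120 bases before the annotated start, 5′ to 3′ on the gene's own strand, read from GRCm39. Capitals mark, on either strand, a form of the TATA box (TATATA), the 2 forms of the site read by GATA factors (AGATAA in one form, TGATAA in the other) and the AP-1 site (TGANTCA). The first GATA form has no match in these 5 runs, and its matches lie further upstream.
Prl2c5: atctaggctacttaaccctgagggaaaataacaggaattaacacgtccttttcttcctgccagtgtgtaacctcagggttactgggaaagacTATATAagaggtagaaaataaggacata
Prl7d1: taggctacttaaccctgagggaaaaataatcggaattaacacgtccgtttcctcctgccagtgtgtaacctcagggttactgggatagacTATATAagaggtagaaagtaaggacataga
Prl2a1: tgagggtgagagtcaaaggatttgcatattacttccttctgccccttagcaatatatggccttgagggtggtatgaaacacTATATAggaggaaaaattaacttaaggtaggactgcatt
Prl2b1: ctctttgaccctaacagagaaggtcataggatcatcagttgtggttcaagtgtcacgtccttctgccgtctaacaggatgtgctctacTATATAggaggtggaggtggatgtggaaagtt
Prl3d1: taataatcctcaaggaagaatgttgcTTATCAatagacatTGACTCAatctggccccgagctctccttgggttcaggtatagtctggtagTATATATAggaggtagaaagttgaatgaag
They lie at chr13:13357178-13357297 (plus strand, *Prl2c5*), chr13:27900720-27900839 (minus strand, *Prl7d1*), chr13:27985517-27985636 (plus strand, *Prl2a1*), chr13:27574830-27574949 (minus strand, *Prl2b1*) and chr13:27278053-27278172 (plus strand, *Prl3d1*).

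The letters TATATA, which read the same on both strands and can act as a TATA box, stood within the 50 bases before the start in 10 of the 10 genes. This motif was chosen after the sequences had been seen. It stood in that window in 22 of 26 family genes (84.6%) and in 1.62% of 21757 protein-coding genes, and within 250 bases of the start in 4.65% of the latter. The other motifs were searched over 250 bases on both strands. TATAAA, another form of the TATA box, was found in 2 of the 10 genes and in 11.9% of all promoters. AGATAA, a form of the site read by GATA factors, was found in 5 of the 10 (*Prl2b1*, *Prl2c5*, *Prl4a1*, *Prl7b1* and *Prl7d1*) and in 9.61% of all promoters. TGATAA, the other GATA form, was found in *Prl3d1* alone of the 10 and in 7.63% of all. TGANTCA, the site of AP-1 (JUN and FOS dimers), was found in *Prl3d1* and *Prl7a2* and in 6.18% of all. CANNTG, read by basic helix-loop-helix factors such as HAND1, was found in 5 of the 10 and in 64.8% of all. A match is a description of the letters, and the family's promoters derive from each other, so the 10 genes are not independent cases.

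*Prl2c5* (proliferin family) and *Prl7d1* (proliferin-related protein) lie in different blocks, and their coding sequences were 55.2% identical. Their promoters were 92.9% identical over 250 bases, against a median of 51.5% over the 45 pairs of the 10 genes. The counts of *Prl7d1* were 0.405 and 0.422 times those of *Prl2c5* in the B/J NPC libraries and 0.448 and 0.482 times in the J/B NPC libraries. The promoters of *Prl2c3* and *Prl2c2*, named after their values were seen, were 94.5% and 86.3% identical to that of *Prl2c5*, and their counts were 0.00268 to 0.0127 and 0.0363 to 0.0922 times those of *Prl2c5*. Of the 75-base stretches of their transcripts 69.9% and 80.1% occurred also in other genes, so that these counts are uncertain. For *Prl7b1* and *Prl7d1*, whose promoters were 53.4% identical, the ratio ran from 0.528 to 0.938. Coding sequences of the 10 genes were 49.0 to 63.5% identical to each other (median 54.2%). Closer copies existed outside the 10: *Prl2c2* was 96.1% identical to *Prl2c5*, and *Prl3d3* was 98.7% identical to *Prl3d1*.

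Such copies bear on the counts, since a read that matches 2 genes is lost at the mapping quality filter or may be given to either. Of all stretches of 75 bases in the main transcript, 37.8% of those of *Prl3d1* occurred also in *Prl3d2* or *Prl3d3*, and 19.6% of those of *Prl2c5* occurred in *Prl2c1*, *Prl2c2*, *Prl2c3* or the predicted gene *Gm7040*. The values of these 2 genes are uncertain to that degree. The other 8 genes shared no such stretch with another gene, and none of the 10 overlapped an exon of another gene.

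In ESCs, none of the 10 genes received a count in any of the 4 libraries. A count of 0 allows up to 0.107 to 0.133 CPM per gene in these libraries (3 counts, counting error only). In NPCs, the 10 genes together made up 995.2 and 600.4 CPM in the B/J libraries and 727.6 and 532.2 CPM in the J/B libraries, a mean of 713.8 ± 204.3 CPM (SD, n = 4). The other 17 family genes together gave 100.6 ± 38.9 CPM, so that the 10 genes held most of the family's reads. Having 0 counts in every ESC library and at least 1 in every NPC library was a property of 615 of 26263 genes (2.34%), among them the 10 genes and 10 of the other 17. This is what they were chosen for and is given as a description. In bulk RNA, fewer cells of a type and less RNA per cell cannot be told apart.

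The 3 genes of subfamily 2 had the highest mean CPM over the 4 NPC libraries, although *Prl2b1* stood below *Prl7d1* and *Prl7b1* in both J/B libraries. *Prl2a1*, which encodes prolactin-like protein M, was read at 272.4 and 150.6 CPM in the B/J NPC libraries and 286.0 and 158.1 CPM in the J/B NPC libraries. Replicate 1 was above replicate 2 in each cross, and the crosses overlapped. Measured against the limit of 3 counts over the 4 ESC libraries, its NPC level was at least 7771-fold higher.

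*Prl2c5*, a proliferin, which is a growth and blood vessel factor of giant cells, was read at 205.6 and 141.1 CPM in B/J and 175.8 and 146.4 CPM in J/B, at least 5899-fold above the ESC limit. *Prl2b1*, which encodes prolactin-like protein K, was read at 301.0 and 134.3 CPM in B/J but 30.6 and 37.4 CPM in J/B. Both B/J libraries were thus above both J/B libraries.

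The 3 genes of subfamily 7 varied less between libraries than *Prl2b1*. *Prl7d1*, a proliferin-related protein known to restrain vessel growth, stood at 83.3 and 59.5 CPM in B/J and 78.8 and 70.6 CPM in J/B, and at 1.40 times between the lowest and the highest library it varied least of the 10. *Prl7b1* (prolactin-like protein N) stood at 44.0 and 44.3 CPM in B/J and 73.9 and 59.6 CPM in J/B, with no overlap between the crosses. *Prl7a2* (prolactin-like protein F) stood at 3.83 and 7.52 CPM in B/J and 6.24 and 6.32 CPM in J/B, with the J/B libraries inside the range of the B/J libraries.

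The placental lactogens, the hormones of the family that act on the prolactin receptor, are *Prl3d1* (placental lactogen I, of early giant cells) and *Prl3b1* (placental lactogen II, of later ones). *Prl3b1* was read at 74.1 and 44.3 CPM in B/J and 43.6 and 29.4 CPM in J/B. *Prl3d1* was far lower. The B/J libraries gave it 14 and 21 counts (0.454 and 0.790 CPM), and the J/B libraries 270 and 89 counts (8.26 and 3.47 CPM). The counts of *Prl3d1* were 0.00613 and 0.0178 times those of *Prl3b1* in B/J, and 0.189 and 0.118 times in J/B, so that lactogen II exceeded lactogen I in every NPC library.

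*Prl4a1* (prolactin-like protein A, known to act on natural killer cells of the uterus) was read at 9.87 and 17.7 CPM in B/J and 24.0 and 20.8 CPM in J/B. *Prl5a1* (prolactin-like protein L) received only 20 and 8 counts in B/J and 14 and 2 counts in J/B, 0.0781 to 0.649 CPM. It was chosen with the rest for a rise to high levels, but at 0.364 ± 0.239 CPM (SD, n = 4) it was not high. Against the ESC limit, with counts pooled over the libraries of each stage, the remaining genes were at least 4458-fold (*Prl2b1*), 2570-fold (*Prl7d1*), 1951-fold (*Prl7b1*), 1699-fold (*Prl3b1*), 630.1-fold (*Prl4a1*), 206.0-fold (*Prl7a2*), 118.7-fold (*Prl3d1*) and 13.3-fold (*Prl5a1*) higher. The bound of *Prl3d1* was 52.1-fold without J/B replicate 1, and that of *Prl2b1* was 2269-fold without B/J replicate 1.

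**Figure D1:**
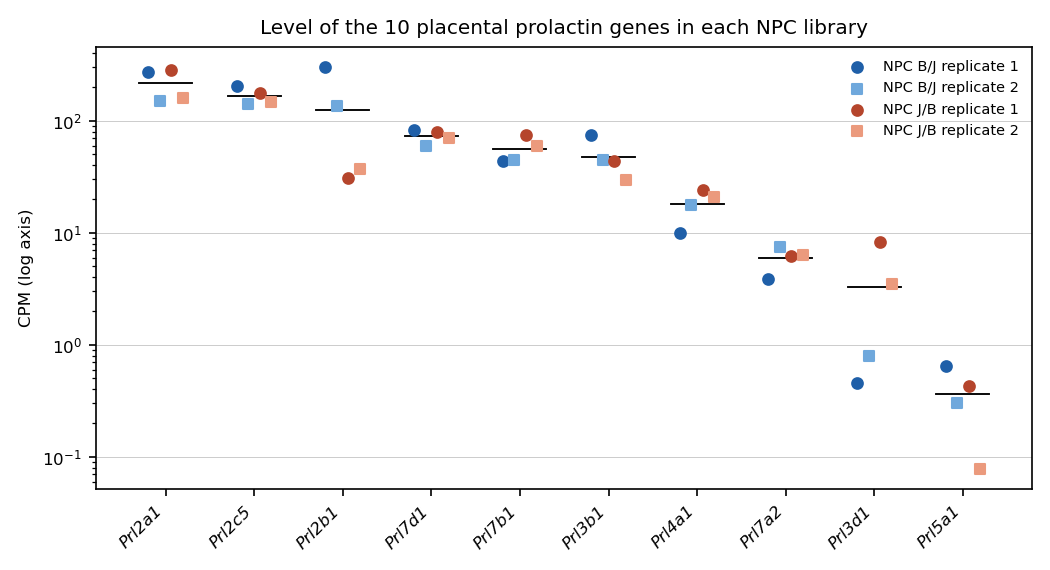
CPM on a log axis of the 10 genes in the 4 NPC libraries, ordered by mean, with a line at the mean of the 4 libraries. *Prl2b1* and *Prl3d1* split by cross, in opposite directions (30.6 to 301.0 CPM and 0.454 to 8.26 CPM).

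Levels of different genes can be compared only per length, and CPM was therefore divided by the length of the union of a gene's annotated exons. *Prl2a1* led with 245.2 ± 81.9 CPM per kb (SD, n = 4 here and below), followed by *Prl2c5* with 141.8 ± 25.2 and *Prl2b1* with 141.2 ± 141.4. *Prl7b1* followed with 59.9 ± 15.4 CPM per kb, *Prl3b1* with 44.9 ± 17.6, *Prl4a1* with 20.6 ± 6.92 and *Prl7d1* with 19.3 ± 2.76. *Prl7a2* reached 4.68 ± 1.21 CPM per kb, *Prl3d1* 3.71 ± 4.12 and *Prl5a1* 0.343 ± 0.225.

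Most neighbours in this order could not be separated. The ranges of *Prl3b1* and *Prl4a1* did not overlap, nor did those of *Prl7d1* and *Prl7a2*, whereas those of the other 7 neighbouring pairs did. *Prl2a1* was above *Prl2c5* within each of the 4 libraries, but *Prl2c5* was above *Prl2b1* in 2 of 4 and *Prl2b1* above *Prl7b1* in 2 of 4, in both cases as the cross divided them. The place of *Prl7d1* depended on the length used: its exons in GENCODE sum to 3785 bases, in a gene of 10400 bases where RefSeq gives 7740. Per kb of coding sequence, a length chosen after seeing the data, its mean was 99.8 ± 14.3 CPM per kb.

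Of the rest of the family, the highest by CPM were *Prl8a9* (39.4 ± 17.7 CPM, 41.8 CPM per kb), *Prl6a1* (31.3 ± 26.6 CPM, 27.0 CPM per kb) and *Prl2c2* (10.1 ± 4.57 CPM, 9.26 CPM per kb). By their means, the first 2 stood above *Prl4a1* and *Prl7d1* per kb of exon, so that the 10 genes are not the 10 highest of the family. In the J/B libraries *Prl6a1* (16.3 and 8.92 CPM per kb) stood below *Prl4a1* (27.4 and 23.7) and *Prl7d1* (20.8 and 18.6). *Prl8a9* stood below *Prl4a1* in J/B replicate 1, at 25.9 CPM per kb. *Prl5a1* ranked 21st of the 26 genes with a length. *Prl*, the pituitary hormone gene itself, and *Prl3a1* had 0 counts in all 8 libraries, and the remaining 12 family genes had between 1 and 1036 counts in the NPC libraries together. In ESCs the 17 genes had 1 count between them, on *Prl6a1*.

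**Figure D2:**
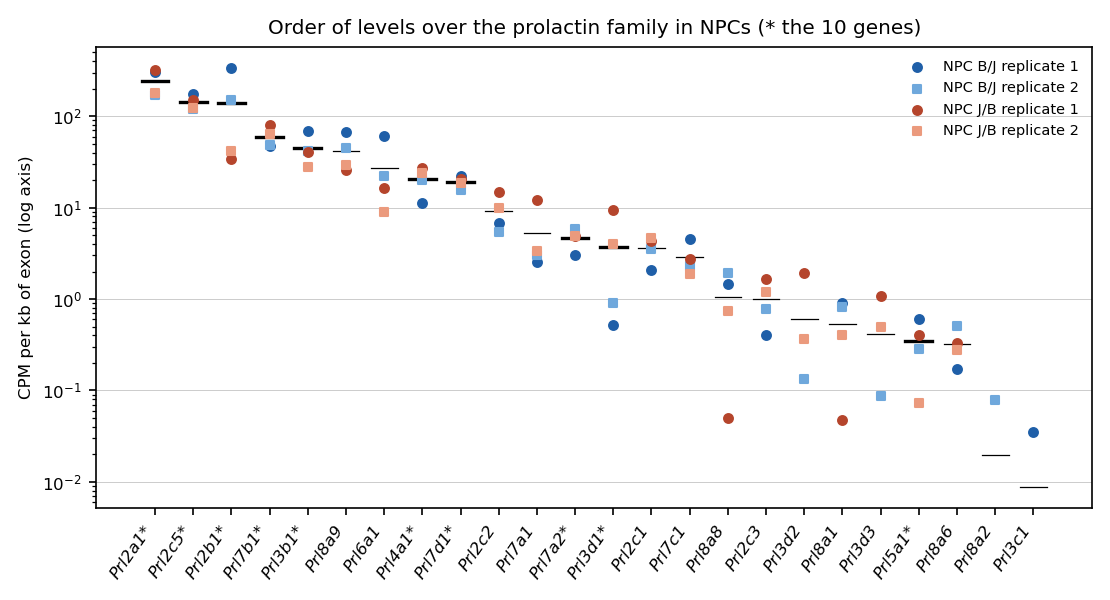
CPM per kb of exon on a log axis in the 4 NPC libraries, for the 24 family genes with a length and a count in NPCs, in order of their mean (line), with the 10 genes starred; libraries at 0 are not drawn. The means run from 245.2 CPM per kb for *Prl2a1* down, and *Prl5a1* stands among the lowest genes of the family.

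As a share of the counts of the 10 genes, which takes out the total, *Prl2a1* held 27.4% and 25.1% in the B/J libraries and 39.3% and 29.7% in the J/B libraries. *Prl2b1* held 30.2% (95% Wilson interval 29.7 to 30.8) and 22.4% (21.7 to 23.0) in B/J, against 4.20% (3.95 to 4.46) and 7.03% (6.61 to 7.47) in J/B. *Prl2c5* held 20.7% to 27.5%, and *Prl7d1* 8.37% to 13.3%. The intervals cover counting error only, and the 2 libraries of a cross differed by more than that for *Prl2b1*. For *Prl2b1* the gap between the crosses was nevertheless wider than the gap within either.

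**Figure D3:**
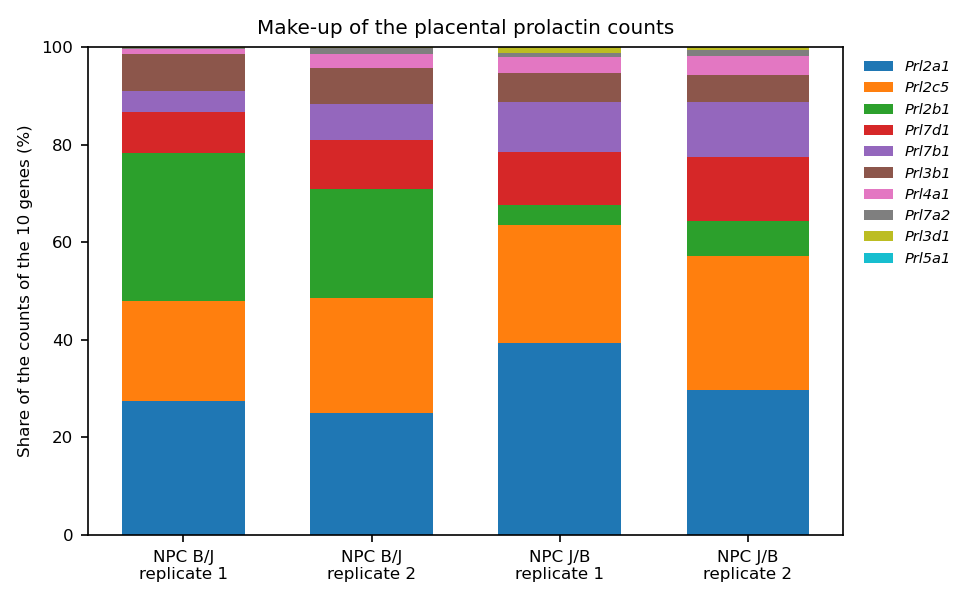
Share of the counts of the 10 genes taken by each gene, in percent, in each NPC library (bars sum to 100%). The share of *Prl2b1* was 30.2% and 22.4% in the B/J libraries, against 4.20% and 7.03% in the J/B libraries.

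The comparison of J/B with B/J in NPCs is the one the study labels that did not choose the genes. It was fitted over all genes with edgeR's quasi-likelihood test, and fold changes are log2 of J/B over B/J after TMM normalization. *Prl2b1* had a log2 fold change of -2.74 (SE 0.439, 95% interval -3.83 to -1.65), with the higher values in B/J, and *Prl3d1* had 3.19 (SE 0.771, 1.28 to 5.09), with the higher values in J/B. Neither passed the adjustment over all genes: the adjusted p was 0.734 for each, with unadjusted p of 9.71e-04 and 0.00666. Of the 10 genes, 0 passed an adjusted p of 0.05, against 1 of 16399 genes tested (0.00610%), and 2 had an unadjusted p below 0.05, against 6.40% of all genes. The 1 gene that passed was *Firre*, a non-coding RNA gene outside the family, named after its value was seen. With DESeq2's Wald test, *Prl2b1* passed with an adjusted p of 7.92e-06, 1 of the 10 genes, and 70 genes passed in all, whereas limma-voom passed 0 of the 10. *Prl2b1* kept its direction under each of the 15 alternatives tried (-3.24 to -2.03, adjusted p 7.92e-06 to 1), and *Prl3d1* kept its own (2.39 to 3.68, adjusted p 0.155 to 1).

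Markers of other cell types split by cross beside these values. The summed giant cell and spongiotrophoblast markers stood at 1899 and 1014 CPM in the B/J NPC libraries and 958.1 and 811.9 CPM in the J/B ones, and the neural precursor markers at 143.5 and 363.9 CPM against 584.6 and 587.0 CPM, neither with overlap. Their part in the fold changes was not tested. The other 8 genes lay closer to 0. *Prl3b1* stood at -0.75 (95% interval -1.70 to 0.19) and *Prl5a1* at -0.93 (-3.61 to 1.75). *Prl4a1* stood at 0.66 (-0.40 to 1.71) and *Prl7b1* at 0.55 (-0.08 to 1.17). *Prl2a1* (0.01), *Prl7d1* (0.01), *Prl7a2* (0.10) and *Prl2c5* (-0.16) were near 0, with intervals that reach from -1.25 to 1.46 for *Prl7a2* and from -0.66 to 0.68 for *Prl7d1*, and each of these 4 changed sign under at least 1 alternative. The 2 libraries of a cross did not overlap those of the other for 5 of the 10 genes (50%), 2 higher in B/J and 3 higher in J/B, against 39.7% of all genes tested.

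Placed in their order on the chromosome, many of the family genes with negative fold changes stood together. From *Prl6a1* to *Prl8a1*, a stretch of 7 consecutive family genes over 269.5 kb that includes *Prl2b1*, 5 genes had enough counts to be tested and 5 of 5 had a fold change below 0, from -2.74 to -1.09. This stretch was marked out after its values were seen, so no test is given. Outside it, 4 of the 15 tested genes with a position had a fold change below 0 and 11 had one above 0. Among the others in the stretch, *Prl6a1* stood at -1.77 and *Prl8a9* at -1.09, with 47.97 against 14.6 CPM and 52.96 against 25.9 CPM in B/J and J/B. The near-identical copies of *Prl3d1*, named for their shared reads after their values were seen, were counted at 0 and 3 (*Prl3d2*) and 0 and 2 (*Prl3d3*) in B/J, against 54 and 8, and 30 and 11, in J/B. Over the 11 other family genes tested, 0 passed the adjustment by edgeR and 3 had an unadjusted p below 0.05, against 0.00610% and 6.40% of all genes tested. For 9 of the 11, the 2 libraries of a cross did not overlap those of the other, against 39.7% of all genes tested. Low genes such as *Prl3d3* had enough counts for the test only through the cross in which they stood higher, so these counts and those of signs are descriptions.

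**Figure D4:**
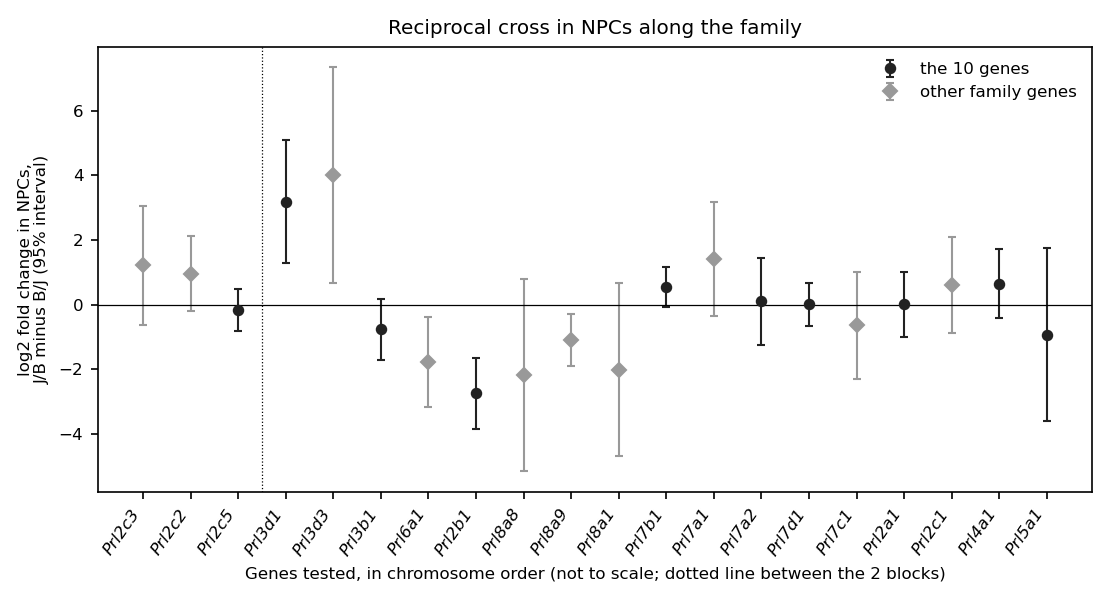
Log2 fold change of J/B over B/J in NPCs with its 95% interval (edgeR) for the 20 tested family genes with a position, in chromosome order, with the 10 genes in black. *Prl6a1*, *Prl2b1*, *Prl8a8*, *Prl8a9* and *Prl8a1* all lie below 0, and *Prl3d1* lies at 3.19; no gene passed the adjustment over all genes.

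Markers of trophoblast outside the family were also at higher levels in the NPC libraries. A list of 9 giant cell and spongiotrophoblast markers summed to 60.0 to 86.4 CPM in ESCs, where 5 or 6 of the 9 were at 0 in each library, and to 811.9 to 1899 CPM in NPCs, where none was at 0. Since most of these genes passed the low-count filter only through the NPC libraries, no count of calls is given for them. *Tpbpa*, the defining gene of spongiotrophoblast, had 0 counts in ESCs and was read at 450.0 and 184.6 CPM in B/J NPCs and 281.4 and 170.9 CPM in J/B NPCs. *Ctsj*, a placental cathepsin, had 0 counts in ESCs and was read at 574.9 and 328.6 CPM in B/J and 295.5 and 251.7 CPM in J/B. For both, as for the 10 genes together, B/J replicate 1 was the highest library and J/B replicate 2 the lowest.

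The label of the cells was checked in the same way. Neural precursor markers (7 genes) summed to 17.1 to 50.5 CPM in ESCs and 143.5 to 587.0 CPM in NPCs, and 6 of 7 rose (edgeR, adjusted over all genes), where 37.5% of all genes tested rose and 31.9% fell. These shares are the background for the marker counts that follow as well, which are descriptions, since genes near 0 in ESCs were tested only through their NPC counts. *Pax6* did not pass (log2 fold change 1.77, adjusted p 0.0606, edgeR), with libraries that overlap between the stages, but did with library totals (adjusted p 0.0293, edgeR). The NPC library lowest in the neural precursor markers was B/J replicate 1, the one highest in the 10 genes. ESC markers (5 genes) summed to 3217 to 5506 CPM in ESCs and 48.2 to 239.8 CPM in NPCs, and all 5 fell. The NPC libraries thus held reads of neural precursor, trophoblast and ESC marker genes at once. The part of cell make-up in the levels of the 10 genes was not tested.

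Lists for other placental, uterine and pituitary cell types gave mixed counts. Labyrinth and syncytiotrophoblast markers summed to 349.0 to 440.4 CPM in ESCs and 515.7 to 907.9 CPM in NPCs, of which 4 of the 6 tested rose and 1 fell (*Ly6e*, with overlapping libraries, which did not pass with library totals). Among those that rose were *Syna* (means of 0.140 CPM in ESCs and 11.9 CPM in NPCs) and *Gcm1* (0.178 and 3.09 CPM), genes of syncytiotrophoblast, while its gene *Synb* received 5 counts in the 4 NPC libraries together. Decidual stroma markers summed to 1.78 to 7.36 CPM in ESCs and 52.6 to 70.4 CPM in NPCs, of which 4 of 7 rose and 2 fell. *Wnt4* (log2 fold change 5.15), *Cryab* (5.12), *Bmp2* (3.51) and *Hand2* (1.88) rose. *Pgr*, the progesterone receptor, and *Hoxa11*, a homeobox gene of the uterus, fell, with overlapping libraries, and *Hoxa11* did not pass with library totals (adjusted p 0.0867, edgeR). Anterior pituitary markers summed to 0.717 to 0.948 CPM in ESCs and 1.66 to 2.84 CPM in NPCs, of which 1 of 9 could be tested and rose: *Pomc*, from 0.650 to 1.94 CPM (log2 fold change 1.10). The defining genes *Prl* and *Pou1f1* were at 0 in all 8 libraries.

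**Figure D5:**
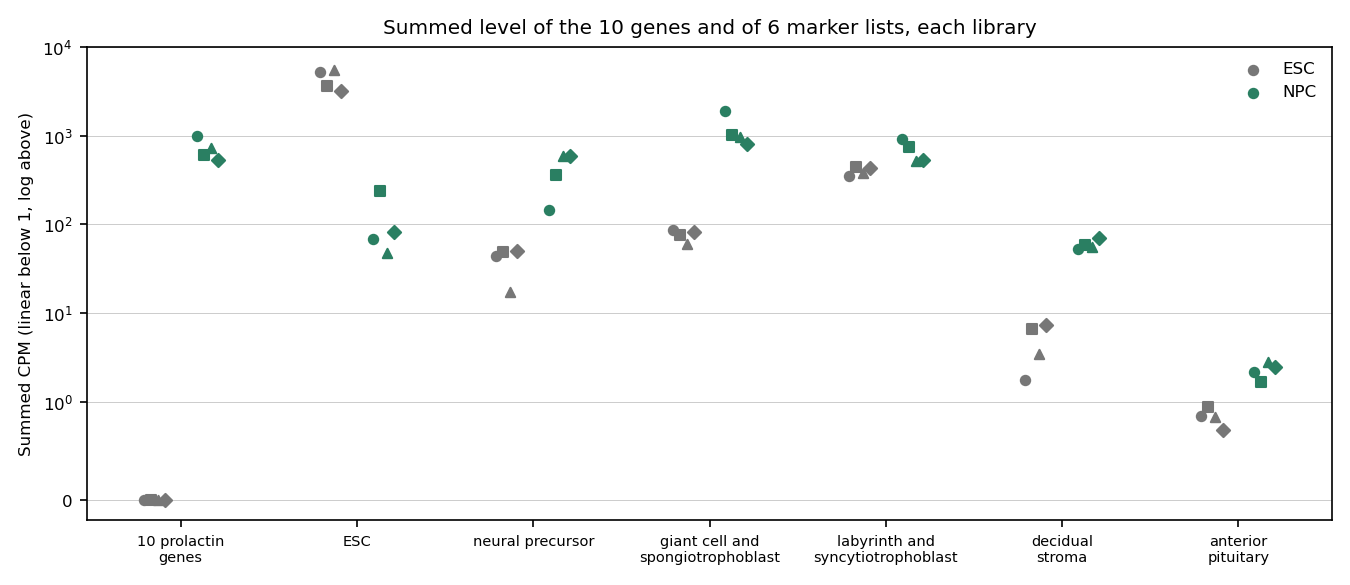
Summed CPM of the 10 genes and of 6 marker lists in each library (circle, B/J replicate 1; square, B/J replicate 2; triangle, J/B replicate 1; diamond, J/B replicate 2), on an axis that is linear below 1 and logarithmic above. The 10 genes went from 0 in ESCs to 532.2 to 995.2 CPM in NPCs, beside giant cell and spongiotrophoblast markers at 811.9 to 1899 CPM.

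Genes of prolactin receptor signalling were next compared between the stages. Of 21 such genes, all tested, 10 rose and 4 fell in NPCs (edgeR's quasi-likelihood test, adjusted over all genes), against 37.5% of all genes that rose and 31.9% that fell, with a median log2 fold change of 0.59 in the list and 0.17 over all genes. Scaling to library totals moved the median of all genes to 0.65, and the list then had 15 genes that rose and 3 that fell, against 8016 and 3422 of all genes (6145 and 5233 with TMM). *Prlr*, the receptor itself, had 3.30 ± 2.88 CPM at the ESC stage and 6.22 ± 3.77 CPM at day 12 (SD, n = 4 each), with overlapping libraries and an adjusted p of 0.755 from edgeR. Its log2 fold change of 0.29 ran from -0.18 to 2.22 over the 14 alternatives, and it passed under 1 of them, without ESC J/B replicate 2 (2.22, adjusted p 0.00989, edgeR). *Ghr*, the related growth hormone receptor, rose from 4.52 ± 3.56 to 35.4 ± 8.48 CPM (log2 fold change 2.51, SE 0.608, adjusted p 0.00697, edgeR).

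Among the largest rises in the list were those of *Irs1* (3.62, SE 0.532, an adaptor of insulin and cytokine receptors) and *Jak2* (3.05, SE 0.226, the kinase bound to the prolactin receptor). *Jak2* went from 5.61 ± 2.25 to 62.6 ± 8.80 CPM. The largest falls were those of the feedback inhibitors *Socs3* (-1.94, SE 0.182) and *Socs2* (-1.75, SE 0.361) and of the phosphatase *Ptpn6* (-1.34, SE 0.175), the last 2 with libraries that overlap between the stages in CPM. The feedback inhibitors *Cish* (0.79, adjusted p 0.0854) and *Socs1* (1.21, adjusted p 0.0967) did not pass edgeR's test, but did under 3 and 4 of the 14 alternatives. *Socs3* went from 108.6 ± 10.6 to 39.6 ± 8.46 CPM. These 5 genes and *Ghr* kept their direction and passed under each of the 14 alternatives tried, scalings included.

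Of 12 transcription factors known to act on prolactin family genes or in trophoblast, 8 rose and 0 fell, against 37.5% and 31.9% of all genes, with a median log2 fold change of 2.67 against 0.17. *Gata3*, a trophoblast factor, rose from 0.592 ± 0.477 to 46.5 ± 24.7 CPM (log2 fold change 5.69, SE 0.590). *Elf5*, of trophoblast stem cells, stood at 0.0447 ± 0.0673 CPM in ESCs (5 counts in all) and 1.05 ± 0.497 CPM in NPCs (123 counts). *Elf5* passed the low-count filter only through its NPC counts, so its place among the 8 is a description. *Gata2*, which acts on the lactogen I and proliferin promoters, rose from 4.53 ± 2.70 to 90.7 ± 61.4 CPM (3.65, SE 0.483). The 12 factors together summed to 1129 and 744.1 CPM in the B/J NPC libraries and 547.9 and 638.0 CPM in the J/B ones, an order that matched that of the 10 genes only at the highest library.

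The genes whose levels were most like the sum of the 10 genes over the NPC libraries were sought among 379 genes outside the family. These had at most 3 counts in ESCs, a mean of at least 1 CPM in NPCs and a count in every NPC library. Likeness was the SD over the 4 libraries of the log2 ratio to that sum. Among the closest were *Hcrtr1* (0.0683), *Psg22* (0.104), *Ccr1l1* (0.132) and *Entpd1* (0.214). *Hcrtr1* stood near the lower limit for candidates, at 0.976 to 2.01 CPM. *Psg22*, a pregnancy-specific glycoprotein of the placenta, was read at 35.4 and 21.6 CPM in B/J and 25.6 and 21.9 CPM in J/B. Of the 10 genes, *Prl2c5* (0.170) and *Prl3b1* (0.216) followed their sum closely, whereas *Prl2b1* (1.35) and *Prl3d1* (2.12) did not. Each of them is part of that sum, so that some likeness is built in. With 4 libraries and 379 candidates, close values are a description only.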

How the data were processed

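RNA-seq libraries of ESCs and day 12 NPCs were made by TruSeq Stranded or NEBNext Ultra II kits and sequenced on HiSeq4000 or NovaSeq instruments. Which library had which was not stated. The authors aligned reads with TopHat2 to mm39 masked at JF1 SNPs, using a refGene-based annotation, and kept properly paired reads at mapping quality 20 or above. Raw counts per gene, over both alleles, are what the authors deposited. The submitters' processing notes also name HTSeq, DESeq2 and edgeR, without versions or the strand setting of the counting. The 5 closing entries without a gene (of all reads in the tables, 5.76 to 10.9% had no feature and 0.355 to 0.554% were ambiguous) were left out.

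CPM was computed on the total of each library. Counts were fitted in R 4.3.3 with edgeR 4.0.16 (TMM, filterByExpr with a minimum count of 10, robust quasi-likelihood, 4 group means, 16399 genes), with Benjamini-Hochberg adjustment over these genes and a threshold of 0.05, with DESeq2 1.42.0 and limma-voom 3.58.1 as alternatives, besides other scalings, no filter, a replicate block, NPC libraries only and each library left out. Fits were tested on simulated data. Positions, lengths and promoters came from GENCODE vM39 and GRCm39. The members, lists and tests were chosen with earlier results of these data known. Named were the 10 genes, the 3 highest other family genes and those at 0, the 5 genes most like the sum, the receptors and the 3 largest changes that passed in each direction in 2 lists, and the genes beside the family. The last were taken beside each block, since 180 measured genes lie between the blocks. A few of the genes these rules name are not reported here.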

Additional observations from a re-analysis of the deposited data

How the results depend on the processing

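For J/B against B/J in NPCs, 1 gene passed with edgeR, 0 with library totals, 70 with DESeq2's Wald test, 5 without the filter on low counts, 0 in a fit of the NPC libraries alone and 0 to 1 with a library left out. Of the 10 genes, 1 (*Prl2b1*) passed with DESeq2 and 0 under the other alternatives. Of 150 alternative fold changes of the 10 genes, 139 kept their direction and side of the threshold and 10 changed sign, all of genes near 0. *Prl2a1* went to -0.0018 with RLE factors and -0.0019 with DESeq2, and to -0.51 to 0.52 with a library left out. *Prl7d1* went to -0.0057 with either, and to -0.25 to 0.28 with a library left out. With a library left out, *Prl2c5* ran from -0.44 to 0.15 and *Prl7a2* from -0.30 to 0.62. The cause was not tested. Counts of genes called between the stages stayed within 1.5 times of the main ones (10225 to 12010 in all).

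The replicate numbers are not said to mark a shared culture or day. Differences between replicates 2 and 1 correlated across genes at 0.476 between the ESC groups and 0.608 between the NPC groups, but at 0.0476 to 0.0901 across stages. Within a stage, replicate 2 thus differed from replicate 1 in a like way in both crosses, but the numbers did not hold across all groups and were not taken as pairs. The replicate block used the same term for both stages, so it did not model a difference particular to NPCs. A fit that pairs replicates within NPCs was not run. With the replicate block, 0 genes passed between the crosses and 12010 between the stages, and *Prl2b1* (-2.63, adjusted p 0.381) and *Prl3d1* (3.09, adjusted p 0.386) kept their directions without passing (edgeR).

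The share of the summed level per kb taken by *Prl7d1* was 2.96%, or 10.6% without a length and 9.97% with the coding length, that of *Prl2c5* 21.4% or 24.8% with the coding length, and that of *Prl3b1* 6.49% or 7.42% with the longest transcript. With stretches of 50 and 100 bases in place of 75, *Prl3d1* shared 57.1% and 26.8% and *Prl2c5* 38.5% and 8.70%. A group reduced to 1 library took its spread from the remaining groups. *Prl5a1* had 44 counts over the NPC libraries and a 95% interval of -3.61 to 1.75 between the crosses.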
